A study of Homo sapiens with 10 samples.

Results

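HCT116 cells, a human colorectal carcinoma line, were compared with a derivative of the same line labelled KDM5A-/-, both transfected with an empty vector. The comparison covers 5 of the 10 libraries of the series: 2 from parental cells, labelled wild type, and 3 from knockout cells. All were made from cells sorted for GFP 24 hours after transfection. Every gene with a value of at least 1 in at least 2 of the 10 libraries was a member, which gave 17779 genes out of 57993 symbols, 13106 of them protein-coding. The remaining 5 libraries, from knockout cells that received KDM5A on a plasmid, either in its wild-type form (3) or as a mutant that the labels do not specify (2), entered the statistical fit to estimate the spread. Parental and knockout cells were each bought as a line, per the labels, and the medium of the knockout cells alone held G418 at 300 ug/mL. Genotype, the separate history of the 2 lines and the antibiotic therefore cannot be told apart in any difference below. Nothing in the labels says that replicate libraries were grown separately, so p-values measure only how far these samples vary, and that variation may be technical.

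KDM5A is a demethylase that takes methyl groups off lysine 4 of histone H3, a mark found at active promoters. It was first described as a protein that binds the retinoblastoma protein RB, and it carries a DNA-binding ARID domain and PHD fingers that read the same histone tail. KDM5A is known for repressing cell cycle, differentiation and mitochondrial genes, and in mammals it has the paralogs KDM5B, KDM5C and KDM5D.

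Values below are scaled FPKM: the authors' log2 values were returned to the linear scale and divided by 1 factor per library. Read depth is unknown, because only these normalized values were analysed. A difference is always knockout minus parental, on the scale of log2(value + 1). That scale understates the change of low genes. A gene was called when its limma adjusted p was under 0.05 over all 17779 genes. Between 15758 and 16010 genes per library reached a value of 1. Of the 5, parental library 2 had a different make-up. Protein-coding genes held 89.6% of its total against 92.5% to 92.6% in the others, and cytosolic ribosomal proteins held 14.6% against 11.8% to 13.0%. Both libraries with the mutant plasmid had a protein-coding share of 90.3%, close to that of parental library 2. For this reason the counts below are also given without parental library 2 or without these 3 libraries. The median absolute difference of a gene, on the log2 scale, was 0.19 between the parental libraries and by 0.11 to 0.14 between knockout libraries. The epithelial markers of the line were present in both groups, with KRT8 at 1457 and 1656 in the parental and 1674, 1672 and 1710.4 in the knockout libraries, EPCAM at 303 and 338 against 305, 280.2 and 271 and CDH1 at 56.8 and 52.7 against 57.5, 50.5 and 55.2. None of the 5 epithelial markers tested was called. The other 5 of the 10, the intestinal markers CDX1, VIL1, CDH17, GPA33 and LGALS4, stayed under 1 in all 5 libraries, with CDX1 listed at 0. Summed over their lists, the 4 endothelial markers stayed between 0.466 and 0.878, the 4 erythroid markers between 3.26 and 6.97 and the 4 hepatocyte markers between 4.60 and 7.87 in every library. The 7 fibroblast markers summed to 15.2 to 29.1, most of it COL1A1. The 7 leukocyte markers summed to 10.2 to 15.9, most of it CD68, which was called higher (log2 difference 0.51, adjusted p = 0.0481; adjusted p = 0.103, 0.122, 0.113 and 0.259 without knockout library 1, knockout library 2, knockout library 3 and parental library 2 in turn). The 4 neuronal markers summed to 36.2 and 37.7 in parental and 21.6 to 23.6 in knockout cells, nearly all of it SYT1, a synaptic vesicle calcium sensor that was called lower (log2 difference -0.71, adjusted p = 0.000741). In bulk libraries, fewer cells that express a gene and less RNA per cell cannot be told apart.

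KDM5A RNA itself did not separate the groups. KDM5A (chromosome 12, 280129 to 389454, GRCh38) measured 13.3 and 17.7 in the parental and 12.2, 15.3 and 12.3 in the knockout libraries, and the ranges overlapped. Its mean was 15.5 ± 3.09 (SD, n = 2) in parental and 13.3 ± 1.78 (SD, n = 3) in knockout cells (log2 difference -0.20, SE 0.13, adjusted p = 0.391), and either parental library moved it when left out, the first to -0.39 (adjusted p = 0.111) and the second to -0.01 (adjusted p = 0.988). A value taken over the whole gene can include RNA from a disrupted locus, so it does not check the knockout label. The paralog KDM5B measured 24.5 and 25.2 in the parental and 25.8, 26.2 and 26.99 in the knockout libraries. KDM5C, which lies on the X chromosome, measured 48.7 and 46.6 in the parental and 51.4, 55.6 and 50.4 in the knockout libraries. Neither was called (log2 difference 0.08, adjusted p = 0.597 and log2 difference 0.14, adjusted p = 0.444, in that order), and KDM5D was listed at 0 in all 5 libraries.

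In all, 861 genes were higher in the knockout cells, 4.84% of the genes tested, and 728 were lower, 4.09%. Together they made up 8.94%. For each of the 1589 called genes the 2 parental values lay outside the range of the 3 knockout values, which was also true of 42.4% of all genes tested. Most differences were small: 1057 of the 1589 were under 1.5-fold, and 145 reached 1 on the log2 scale, 63 higher and 82 lower (0.816% of genes tested). Among protein-coding genes 778 were higher (5.94%) and 665 lower (5.07%), while 146 of 4673 genes of other types were called (3.12%). Of the 1589 genes, 471 were called in each of the 5 fits that left out 1 library, 264 higher and 207 lower. Without parental library 2 the fit called 367 higher (2.06%) and 318 lower (1.79%), and without parental library 1 it called 941 and 960. Leaving out knockout library 1, 2 or 3 gave 938, 824 and 701 calls in all. Without parental library 2 and both libraries with the mutant plasmid there were 574 higher (3.23%) and 473 lower (2.66%), and 781 of the 1589 genes were called there too. None of the 1589 genes changed direction in any of these fits. That was fixed in advance, because the groups overlapped for none of them and these fits only left libraries out. On the values as deposited, which shift the median gene by 0.07, 72.2% of the calls were higher against 54.2% with scaling. The plot of mean levels shows the spread of the calls over the range of expression.

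**Figure D1:**
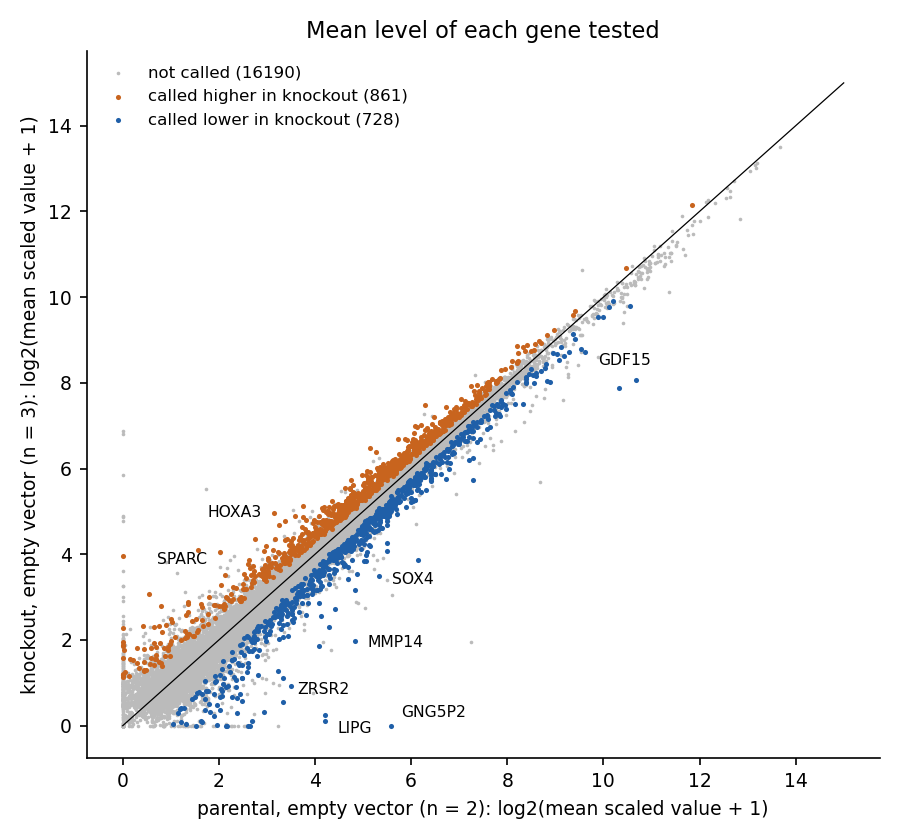
Mean level of each of the 17779 genes tested in parental cells (horizontal axis, 2 libraries) and knockout cells (vertical axis, 3 libraries), as log2(mean scaled value + 1), with the diagonal of equal levels. Orange points are the 861 genes called higher in knockout cells and blue points the 728 called lower; most lie close to the diagonal, and LIPG, ZRSR2 and GNG5P2 lie near the horizontal axis.

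The largest losses included genes hardly read in knockout cells and others still read there at lower values. LIPG, an endothelial lipase that acts on high-density lipoprotein, measured 18.6 and 16.1 in the parental and 0.242, 0.146 and 0.196 in the knockout libraries (log2 difference -3.94, SE 0.18, adjusted p = 2.41e-05), 89.1 times lower in the knockout cells. MMP14, a membrane-bound matrix metalloproteinase that cleaves collagen and activates MMP2, measured 21.9 and 32.99 in the parental and 2.59, 3.07 and 3.23 in the knockout libraries (log2 difference -2.82, SE 0.21, adjusted p = 0.000235). For both genes the lowest parental value was several times the highest knockout value. FAM221A measured 5.99 and 7.34 in the parental and 0.404, 0.205 and 0.126 in the knockout libraries (log2 difference -2.62, SE 0.23, adjusted p = 0.000539). CPVL, a serine carboxypeptidase, measured 17.2 and 14.7 in the parental and 1.39, 3.76 and 2.74 in the knockout libraries (log2 difference -2.27, SE 0.25, adjusted p = 0.00165). Knockout library 1 had the lowest CPVL value, and the groups did not overlap. RND3, an atypical small GTPase that counters actin contractility, measured 17.8 and 19.6 in the parental and 5.42, 3.13 and 3.14 in the knockout libraries (log2 difference -2.04, SE 0.19, adjusted p = 0.000853). All these calls were made in each fit that left out 1 library.

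Several of the genes with the largest losses encode transcription factors. SATB1, which organises chromatin loops, measured 8.95 and 7.83 in the parental and 0.746, 1.59 and 1.91 in the knockout libraries (log2 difference -1.99, SE 0.22, adjusted p = 0.00176). SOX4, a SOX factor active in progenitor cells, measured 40.9 and 37.7 in the parental and 9.36, 10.9 and 10.7 in the knockout libraries (log2 difference -1.84, SE 0.10, adjusted p = 7.59e-05). EHF, an ETS factor of epithelia, measured 28.3 and 27.1 in the parental and 8.72, 8.81 and 6.30 in the knockout libraries (log2 difference -1.69, SE 0.13, adjusted p = 0.000356). In these 3 genes the lower parental value was at least 3 times the highest knockout value. KLF12, a zinc finger repressor, measured 5.45 and 4.61 against 1.03, 1.59 and 1.51 (log2 difference -1.35, adjusted p = 0.00590), and PAX6, a factor of eye and endocrine development, 8.78 and 10.99 against 3.01, 3.72 and 3.11 (log2 difference -1.34, adjusted p = 0.00187). Losses were ranked among called genes with a mean of at least 5 in the higher group. The others of the 15 protein-coding genes with the largest losses were TNNC1 (troponin C), CADPS2 (vesicle release), MAOB (monoamine oxidase B) and TNFRSF6B, a soluble decoy receptor for FAS ligand. TNFRSF6B was the most abundant of these, at 162 and 148 in the parental and 50.2, 50.5 and 56.7 in the knockout libraries (log2 difference -1.54, adjusted p = 8.13e-05). Differences of TNNC1, CADPS2 and MAOB were -1.67, -1.63 and -1.57, and each was called in every fit that left out 1 library.

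Another of the largest losses, ZRSR2, belonged to a short stretch of the X chromosome that was hardly read in the knockout cells. ZRSR2 (chromosome X, 15790472 to 15823260) encodes a splicing factor that recognises the end of the rare U12-type introns. It measured 9.34 and 8.87 in the parental and 0.361, 0.526 and 0.489 in the knockout libraries (log2 difference -2.79, SE 0.19, adjusted p = 0.000163). Next to it, CA5B (chromosome X, 15688830 to 15787624), a mitochondrial carbonic anhydrase, measured 2.83 and 2.98 in the parental and 0, 0.0442 and 0 in the knockout libraries (log2 difference -1.94, SE 0.20, adjusted p = 0.00110). The pseudogene CA5BP1 (chromosome X, 15674932 to 15703724), which overlaps CA5B, measured 16.6 and 18.2 in the parental and 0.197, 0.00627 and 0.0188 in the knockout libraries (log2 difference -4.10, SE 0.19, adjusted p = 2.41e-05). AC112497.1, a short pseudogene inside CA5BP1, was at 3.80 and 6.68 in parental cells and listed at 0 in the 3 knockout libraries. CA5B and CA5BP1 are near-identical in part and overlap, so how reads were split between them is uncertain. All 4 stayed low in the knockout cells that received KDM5A: given wild-type KDM5A they had 0.487, 0.349 and 0.630 of ZRSR2 and 0.00203, 0 and 0 of CA5BP1, and given mutant KDM5A 0.606 and 0.225 and 0 and 0.176. From the start of CA5BP1 to the end of ZRSR2 the stretch spanned 15674932 to 15823260, and all 8 libraries from the knockout line shared it. TMEM27 (chromosome X, 15627318 to 15665031), which lies between PIR and CA5BP1 and was too low to test, was at 0.690 and 0.651 in the parental libraries, at 0.0026 in knockout library 1 and listed at 0 in the other 7 libraries of the knockout line. The nearest tested genes on either side were still read. PIR lies before it and measured 36.6 and 44.6 in the parental and 33.7, 29.5 and 30.4 in the knockout libraries (log2 difference -0.37, adjusted p = 0.0589). AP1S2 lies after it and measured 21 and 22.96 in the parental and 20.4, 18.2 and 19.3 in the knockout libraries (log2 difference -0.18, adjusted p = 0.491). TMEM27, AP1S2, AC112497.1 and the other flanking genes in the plot of the X short arm were chosen after their values were seen.

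**Figure D2:**
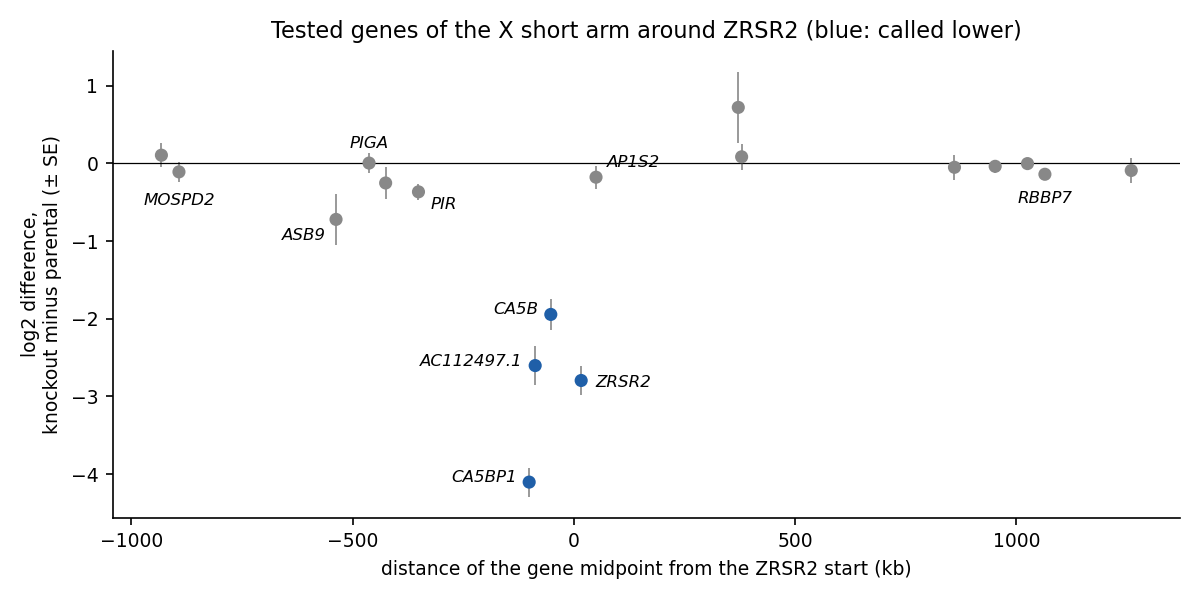
Log2 difference (knockout minus parental, vertical axis, bars are the SE of the fit over 10 libraries) of each tested gene from FANCB to REPS2 on the X short arm against the distance of its midpoint from the ZRSR2 start in kb (horizontal axis). The 4 blue points, CA5BP1, AC112497.1, CA5B and ZRSR2, differ by -1.94 to -4.10, while PIR at -0.37 and AP1S2 at -0.18 on either side were not called.

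The promoter window of ZRSR2 is shown because its RNA was near 0 in every library of the knockout line. It is the RefSeq window from 250 bases before to 50 after the gene start (chrX:15790234-15790533, GRCh38.p14, plus strand), written in lower case with matches to CCGCCC on either strand in capitals. CCGCCC is the sequence described for the ARID domain of KDM5A, and it is also the core of the GC box of SP factors. The window holds 4 matches, and 70.4% of the windows of 9890 tested protein-coding genes held these letters. The windows of CA5B, LIPG and SPARC, searched in the same way, held 0 matches.

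ZRSR2: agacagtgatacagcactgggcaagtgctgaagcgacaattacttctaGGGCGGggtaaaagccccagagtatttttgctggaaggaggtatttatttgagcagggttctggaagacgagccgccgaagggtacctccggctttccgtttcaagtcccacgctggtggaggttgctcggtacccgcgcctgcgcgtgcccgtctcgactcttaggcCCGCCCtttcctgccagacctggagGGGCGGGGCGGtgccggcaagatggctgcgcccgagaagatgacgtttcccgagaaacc

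On the other side, the largest gains began with SPARC, a secreted glycoprotein of the extracellular matrix. SPARC measured 0.505 and 0.420 in the parental and 7.51, 8.47 and 6.46 in the knockout libraries (log2 difference 2.53, SE 0.15, adjusted p = 9.29e-05), 16.2 times higher in the knockout cells. TMPRSS13, a membrane-bound serine protease, measured 0.789 and 0.708 in the parental and 4.52, 5.84 and 7.39 in the knockout libraries (log2 difference 1.96, SE 0.24, adjusted p = 0.00246). HKDC1, a hexokinase, measured 7.68 and 8.14 in the parental and 28.3, 33.6 and 28.03 in the knockout libraries (log2 difference 1.79, SE 0.10, adjusted p = 8.13e-05). In each of these the lowest knockout value was more than 3 times the highest parental value. FXYD3, a regulator of the sodium pump, measured 5.86 and 5.65 in the parental and 20.1, 16.6 and 21.7 in the knockout libraries (log2 difference 1.59, SE 0.16, adjusted p = 0.00100). SAMD9, an interferon-responsive antiviral factor, measured 1.44 and 1.72 in the parental and 6.59, 6.37 and 6.36 in the knockout libraries (log2 difference 1.53, SE 0.10, adjusted p = 0.000163). HOXA3, a homeobox factor of anterior HOXA, measured 9.56 and 7.35 in the parental and 24.3, 24.5 and 25.1 in the knockout libraries (log2 difference 1.45, SE 0.10, adjusted p = 0.000163). UNC13D, which primes granules for release, measured 11.7 and 13.4 against 32.1, 37.02 and 32.2 (log2 difference 1.36, adjusted p = 9.29e-05). EMP1, a tetraspan membrane protein, had the smallest p of all higher genes, at 33.6 and 35 in the parental and 83.5, 88.2 and 93.6 in the knockout libraries (log2 difference 1.34, SE 0.06, adjusted p = 2.41e-05). The others of the 15 largest protein-coding gains, with the same minimum mean of 5, were CXCL2, RP3-461F17.3, ARL14, SDCBP2, ZBTB20, KRT7 and PLK2. Their differences lay between 1.21 and 1.31. KRT7, a simple-epithelial keratin, was at 8.35 and 5.51 against 19.4, 13.5 and 18.99 and lost its call when 1 library was left out (adjusted p = 0.0887 without parental library 2). The plot of leading genes gives the values by library.

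**Figure D3:**
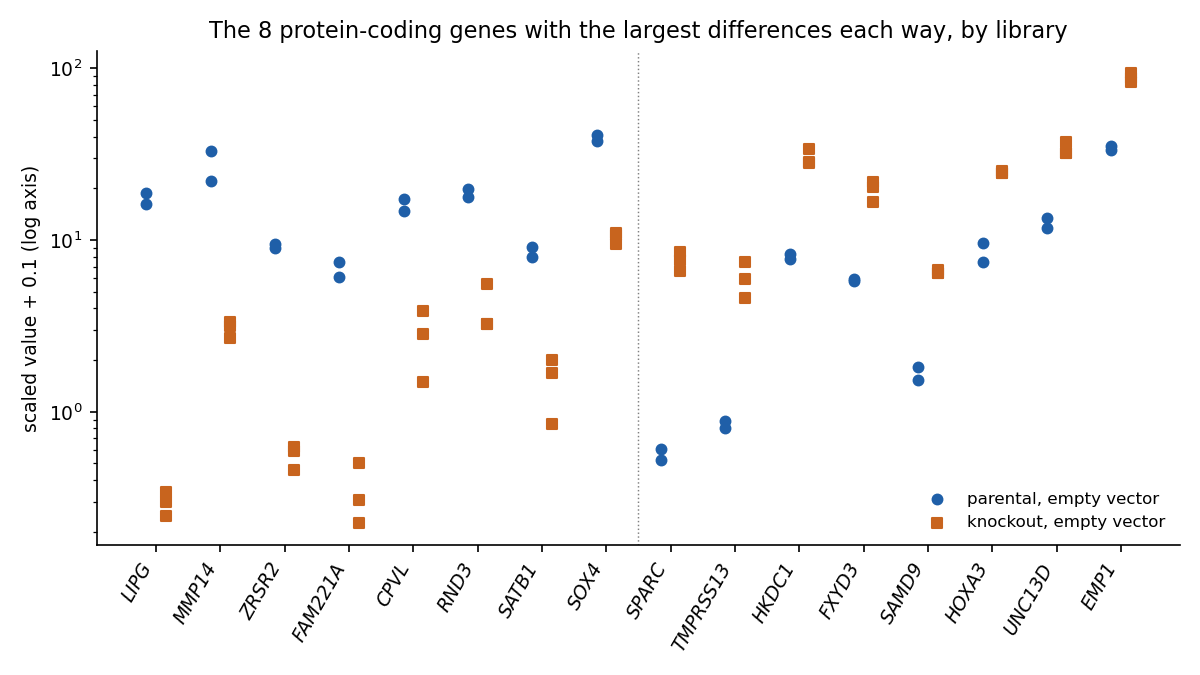
Scaled value plus 0.1 on a log axis in each library for the 8 protein-coding genes with the largest losses (left of the dotted line) and gains (right), with 2 parental libraries as blue circles and 3 knockout libraries as orange squares. Only called genes with a mean of at least 5 in the higher group were ranked. The groups do not overlap for any of the 16 genes, and the knockout values of LIPG (0.146 to 0.242) lie far under the parental values of 18.6 and 16.1.

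Genes of the NF-kB pathway were often higher in the knockout cells. NF-kB factors are held in the cytoplasm by inhibitors of the IkB family and, once released, switch on chemokines, survival factors and their own inhibitors. Of 26 listed members 19 were high enough to test, and of these 11 were higher and 2 lower in the knockout cells, with a median difference of 0.49 against 0.00 over all genes. With knockout library 1, 2 or 3 or parental library 1 or 2 left out, 9, 9, 8, 10 and 8 were called higher and 1, 1, 2, 2 and 1 lower. Without the 3 libraries of lower protein-coding share 9 and 1 were called. NFKBIA, which encodes the inhibitor IkB alpha, measured 64.1 and 67.3 in the parental and 115, 117 and 109 in the knockout libraries (log2 difference 0.78, SE 0.08, adjusted p = 0.000934). TNFAIP3, which encodes the ubiquitin-editing inhibitor A20, measured 10.8 and 9.90 in the parental and 20.1, 17.4 and 18.9 in the knockout libraries (log2 difference 0.80, SE 0.11, adjusted p = 0.00454). BIRC3, an inhibitor of apoptosis in the same pathway, measured 5.62 and 5.42 in the parental and 11.7, 12.1 and 12.9 in the knockout libraries (log2 difference 1.02, SE 0.13, adjusted p = 0.00283). Their values in the 3 knockout libraries were all above both parental values. Among the chemokines, CXCL8, which attracts neutrophils, measured 15.5 and 16.6 in the parental and 29.4, 26.6 and 29.8 in the knockout libraries (log2 difference 0.79, SE 0.10, adjusted p = 0.00273). CXCL2 measured 2.12 and 1.04 against 4.28, 5.68 and 6.01 (log2 difference 1.31, adjusted p = 0.00555) and CXCL3 1.76 and 2.14 against 3.84, 3.45 and 3.82 (log2 difference 0.68, adjusted p = 0.00593), and these close relatives may share reads. CXCL1 and CCL20 did not pass (log2 difference 0.49, adjusted p = 0.0893 and log2 difference 0.56, adjusted p = 0.139). Of the NF-kB subunit genes, RELB measured 49.1 and 40.1 in the parental and 69.3, 68.8 and 67.5 in the knockout libraries (log2 difference 0.62, adjusted p = 0.00276), NFKB1 31.5 and 31.2 against 39.9, 40.5 and 44.5 (log2 difference 0.39, adjusted p = 0.0115; adjusted p = 0.0596 without parental library 2) and NFKB2 183 and 189 against 219, 229 and 223 (log2 difference 0.27, adjusted p = 0.0135; adjusted p = 0.0519 and 0.0509 without knockout library 2 and knockout library 3 in turn). NFKBIE and NFKBIZ, further inhibitors of the IkB type, were called too, each with an adjusted p above 0.05 in 1 or more of those fits. In the opposite direction, ICAM1, the adhesion receptor for leukocytes, measured 4.22 and 4.13 in the parental and 0.449, 0.239 and 0.983 in the knockout libraries (log2 difference -1.76, SE 0.28, adjusted p = 0.00736). TNFAIP8 was the other lower member (log2 difference -0.53, adjusted p = 0.0403; adjusted p = 0.0917, 0.117, 0.0775 and 0.211 without knockout library 1, knockout library 2, knockout library 3 and parental library 2 in turn). CXCL1, CXCL3, CCL20, ICAM1, NFKB1, NFKB2, NFKBIE, NFKBIZ and TNFAIP8 are outside the naming rule and were added after their values were seen.

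Promoters of 4 of the higher NF-kB genes are shown, all 4 with a match to the NF-kB consensus. The consensus was searched as GGGRNNYYCC, where R is A or G, Y is C or T and N is any base. Promoters of CXCL8 and NFKB2, also called higher, held 0 exact matches and are not printed. That of CXCL8 holds tggaatttcc, which differs from the pattern in its first letter. A window without an exact match can therefore still hold closely related letters. Of the 17 list members with a RefSeq promoter window of 300 bases, 11 (64.7%) held the NF-kB consensus on either strand, as did 7 of the 9 called higher, against 13.3% of 9890 tested protein-coding genes. The NF-kB consensus was chosen after the values were seen, and a match is a description of letters, not of binding. Capitals mark the matches, overlapping ones joined. The windows are chr14:35404700-35404999 (minus strand), chr11:102317234-102317533 (plus strand), chr6:137867009-137867308 (plus strand) and chr4:74099146-74099445 (minus strand), all GRCh38.p14.

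NFKBIA: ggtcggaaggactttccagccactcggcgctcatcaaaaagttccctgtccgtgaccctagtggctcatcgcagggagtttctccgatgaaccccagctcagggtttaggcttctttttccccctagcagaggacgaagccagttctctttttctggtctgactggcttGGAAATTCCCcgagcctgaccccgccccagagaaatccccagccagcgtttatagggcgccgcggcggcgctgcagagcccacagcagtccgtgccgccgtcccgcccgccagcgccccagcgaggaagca
BIRC3: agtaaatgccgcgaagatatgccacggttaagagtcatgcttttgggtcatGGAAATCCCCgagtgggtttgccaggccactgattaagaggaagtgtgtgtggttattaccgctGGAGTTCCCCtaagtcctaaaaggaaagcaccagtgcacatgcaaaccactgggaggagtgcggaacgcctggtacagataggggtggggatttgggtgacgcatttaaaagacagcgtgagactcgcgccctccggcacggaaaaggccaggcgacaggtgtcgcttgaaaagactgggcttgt
TNFAIP3: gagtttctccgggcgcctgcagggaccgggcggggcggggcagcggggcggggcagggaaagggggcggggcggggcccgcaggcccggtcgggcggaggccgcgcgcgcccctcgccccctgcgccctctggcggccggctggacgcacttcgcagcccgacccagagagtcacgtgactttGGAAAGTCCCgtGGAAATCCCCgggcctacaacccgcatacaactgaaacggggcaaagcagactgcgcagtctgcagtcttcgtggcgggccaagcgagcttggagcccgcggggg
CXCL2: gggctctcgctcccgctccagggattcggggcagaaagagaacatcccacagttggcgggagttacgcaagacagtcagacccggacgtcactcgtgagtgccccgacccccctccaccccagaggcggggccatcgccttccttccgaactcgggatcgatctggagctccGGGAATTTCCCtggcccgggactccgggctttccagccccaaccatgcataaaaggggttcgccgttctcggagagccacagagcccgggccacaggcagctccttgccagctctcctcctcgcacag

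Immediate early genes moved both ways. These genes answer growth factor signalling within minutes, and the ERK pathway induces its own inhibitors among them. Of 38 tested, 7 were higher and 4 lower, with a median of 0.04. The AP-1 genes FOSL1 (289.5 and 302 against 457, 467 and 469.9; log2 difference 0.65, SE 0.04, adjusted p = 0.000163) and FOSB (5.35 and 4.83 against 12.5, 11.9 and 13.9; log2 difference 1.17, SE 0.11, adjusted p = 0.000919) were higher, parental values first. JUN, their partner in AP-1, was at 112 and 98.9 against 162, 177 and 174 (log2 difference 0.70, adjusted p = 0.00127). CYR61, a YAP target of the matrix, had the smallest p of the list, at 58.4 and 56.8 in the parental and 102, 101 and 102 in the knockout libraries (log2 difference 0.81, SE 0.05, adjusted p = 9.29e-05). In contrast DUSP6, a phosphatase that switches off ERK, measured 149 and 143 in the parental and 71.2, 70.5 and 77.4 in the knockout libraries (log2 difference -0.99, SE 0.10, adjusted p = 0.000934). Another negative regulator of the pathway, SPRY4, was also lower (102 and 93.7 against 52.8, 59.9 and 61.5; log2 difference -0.74, adjusted p = 0.00322) and was added after its values were seen. DUSP1, a phosphatase induced by stress, was higher at 22.4 and 16.5 against 38.5, 35.96 and 35.8 (log2 difference 0.90, adjusted p = 0.00245), again added afterwards. All 7 genes were called in every fit that left out 1 library.

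Genes of DNA replication were higher more often than lower. Of 38 tested members of the list for G1/S and replication, 10 were higher and 0 lower, with a median of 0.19 and 31 differences above 0. The replicative helicase subunit MCM2 measured 68.2 and 62.2 in the parental and 88.3, 89.5 and 91.5 in the knockout libraries (log2 difference 0.46, SE 0.05, adjusted p = 0.00189), and its partner MCM5 69.8 and 62.9 in the parental and 98.9, 105 and 99.4 in the knockout libraries (log2 difference 0.60, SE 0.08, adjusted p = 0.00326). FEN1, which removes RNA primers, measured 66.2 and 69.9 in the parental and 92.4, 94.97 and 88.9 in the knockout libraries (log2 difference 0.43, SE 0.06, adjusted p = 0.00323). These 3 were called in every fit that left out 1 library. CDT1, which loads the helicase, measured 74.04 and 67.1 against 89.8, 93.4 and 102 (log2 difference 0.43, adjusted p = 0.00811; adjusted p = 0.0546 without parental library 2), and E2F2 7.02 and 6.41 against 9.40, 9.87 and 10.1 (log2 difference 0.48, adjusted p = 0.0147; adjusted p = 0.0511, 0.0577 and 0.0877 without knockout library 2, knockout library 3 and parental library 2 in turn). When knockout library 1, 2 or 3 or parental library 1 or 2 was dropped, 7, 5, 5, 10 and 4 were called higher and 0, 0, 0, 0 and 0 lower. For G2/M and mitosis, 5 of 36 were higher and 1 lower (16.7% called, beside 8.94% over all genes). CENPF measured 41.1 and 36.6 against 58.8, 52.3 and 52.9 (log2 difference 0.48, adjusted p = 0.0121; adjusted p = 0.0818 without parental library 2), MKI67 58.4 and 57.9 against 68.3, 76.6 and 77.6 (log2 difference 0.34, adjusted p = 0.0158; adjusted p = 0.0560, 0.0602 and 0.0753 without knockout library 2, knockout library 3 and parental library 2 in turn), and CDC20 215 and 224 against 259, 261 and 254 (log2 difference 0.23, adjusted p = 0.0159; adjusted p = 0.0581 without knockout library 2). With the same libraries dropped in the same order, 3, 2, 2, 3 and 1 were called higher and 0, 0, 0, 3 and 0 lower in this list.

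The window of MCM2 is printed as an example of the replication genes. TTTNNCGC, letters like those described for E2F factors, occurred on either strand in 16 of 32 list members with a window and in 5 of the 9 called higher, against 10.4% of all 9890 windows. These letters were also chosen after the values were seen. The window (chr3:127598161-127598460, GRCh38.p14, plus strand) has its 2 matches in capitals, and they lie just after the gene start.

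MCM2: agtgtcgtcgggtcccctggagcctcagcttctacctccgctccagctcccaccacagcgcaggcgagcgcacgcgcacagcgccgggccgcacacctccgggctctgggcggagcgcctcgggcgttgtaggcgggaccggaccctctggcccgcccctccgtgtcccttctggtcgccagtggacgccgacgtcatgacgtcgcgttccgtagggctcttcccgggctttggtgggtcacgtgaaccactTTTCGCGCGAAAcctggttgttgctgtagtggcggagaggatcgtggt

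CDK inhibitors and the genes described as KDM5A targets were less uniform. CDKN2A, whose products hold back CDK4 and MDM2, measured 91.2 and 107 in the parental and 130.1, 125 and 129 in the knockout libraries (log2 difference 0.37, SE 0.07, adjusted p = 0.0136; adjusted p = 0.0520 without knockout library 3). CDKN1C, an imprinted CDK inhibitor, was lower at 27 and 19.4 in the parental and 12.6, 14.1 and 11.6 in the knockout libraries (log2 difference -0.80, SE 0.15, adjusted p = 0.0153; adjusted p = 0.0570 and 0.0566 without knockout library 3 and parental library 1 in turn). Over all protein-coding genes tested, 5.94% were called higher and 5.07% lower. Of 19 tested genes described as KDM5A targets, 3 were higher and 0 lower (15.8% called, beside 8.94% over all genes), with a median of 0.19. Besides CDKN2A these were MFN2 of mitochondrial fusion (59.1 and 52.3 against 68.4, 71.5 and 68.96; log2 difference 0.32, adjusted p = 0.0210; adjusted p = 0.0718, 0.0641 and 0.115 without knockout library 2, knockout library 3 and parental library 2 in turn) and BRD8 (40.9 and 41.9 against 48.2, 54.3 and 54.7; log2 difference 0.33, adjusted p = 0.0333; adjusted p = 0.103, 0.106, 0.0883 and 0.109 without knockout library 2, knockout library 3, parental library 1 and parental library 2 in turn). Dropping the libraries in the order above, 4, 1, 0, 3 and 1 were called higher and 0, 0, 0, 1 and 1 lower. Of the 21 writers and erasers of H3K4 methylation, 2 were higher and 1 lower (14.3% called). The higher members were SETD1B (log2 difference 0.33, adjusted p = 0.0417) and KDM2A (log2 difference 0.28, adjusted p = 0.0381). In the same order of left-out libraries, 0, 0, 0, 4 and 0 were called higher and 0, 0, 0, 1 and 0 lower. SMYD3 was the lower member (24.9 and 28.7 against 16.8, 19.4 and 17.6; log2 difference -0.56, adjusted p = 0.0359; adjusted p = 0.0976, 0.0622, 0.102 and 0.192 without knockout library 1, knockout library 2, knockout library 3 and parental library 2 in turn). SMYD2, named in the title of the series, was not called and was at 17.9 and 17.9 against 15.2, 14.9 and 14.9 (log2 difference -0.24, adjusted p = 0.120). Of the 20 Polycomb and H3K27 genes 3 were higher, led by the H3K27 demethylase KDM6A (17.1 and 17 against 25.9, 25.8 and 25.1; log2 difference 0.56, adjusted p = 0.0178; adjusted p = 0.0529, 0.0562, 0.0544 and 0.0856 without knockout library 1, knockout library 2, knockout library 3 and parental library 2 in turn). Without parental library 2, 0 were called higher and 0 lower.

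Among repair and DNA methylation genes, BRCA2, a mediator of homologous recombination, measured 2.27 and 2.72 in the parental and 7.54, 5.26 and 8.17 in the knockout libraries (log2 difference 1.18, SE 0.20, adjusted p = 0.00994). It was called in every fit that left out 1 library. Its list as a whole did not stand out, with 2 of 29 homologous recombination and Fanconi genes higher and 1 lower. FANCA was the other higher member (log2 difference 0.45, adjusted p = 0.0244; adjusted p = 0.0584, 0.0691 and 0.140 without knockout library 1, knockout library 3 and parental library 2 in turn), and the checkpoint kinase CHEK1 the lower one (log2 difference -0.56, adjusted p = 0.0421; adjusted p = 0.120, 0.125, 0.163 and 0.0608 without knockout library 2, knockout library 3, parental library 1 and parental library 2 in turn). Of 15 DNA methylation genes 4 were higher, namely MBD1, ZBTB38, DNMT1 and UHRF1, with differences from 0.29 to 0.52. Without parental library 2 none of the 4 was called (adjusted p = 0.0518, 0.117, 0.159 and 0.157). Without knockout library 1, 2 or 3 or parental library 1, the list had 3, 1, 0 and 2 higher.

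MHC class I genes were lower. These genes encode the heavy chains that show peptides to cytotoxic T cells, and their products need beta-2 microglobulin and the TAP transporter. Of 21 tested genes of antigen presentation, 6 were lower and 0 higher, with a median of -0.15. HLA-C measured 568 and 543 in the parental and 446, 457 and 461 in the knockout libraries (log2 difference -0.29, SE 0.05, adjusted p = 0.0127) and HLA-E 124 and 128 in the parental and 101, 104 and 104 in the knockout libraries (log2 difference -0.29, SE 0.05, adjusted p = 0.00847). Both were called in each fit that left out 1 library. HLA-B measured 346 and 357 against 289.7, 301 and 297 (log2 difference -0.25, adjusted p = 0.0208; adjusted p = 0.0645, 0.0536, 0.0707 and 0.0855 without knockout library 1, knockout library 2, knockout library 3 and parental library 2 in turn) and HLA-F 23.7 and 23.6 against 13.7, 12.98 and 10.7 (log2 difference -0.88, adjusted p = 0.0165; adjusted p = 0.0570 and 0.0816 without knockout library 3 and parental library 2 in turn). The light chain gene B2M and the transporter genes TAP1 and TAP2, listed outside the naming rule, were not called (log2 difference -0.09, adjusted p = 0.574, log2 difference -0.07, adjusted p = 0.705 and log2 difference 0.38, adjusted p = 0.0654). HLA genes resemble each other, so the split of reads among them is uncertain. Omitting knockout library 1, 2 or 3 or parental library 1 or 2, 0, 0, 0, 2 and 0 were called higher and 5, 5, 3, 5 and 3 lower. On the values as deposited the median was -0.10 and 1 member was lower, and with quantile normalization it was -0.15 and 3 were lower.

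The interferon response was mixed, with 4 of 35 members higher and 3 lower. IFIT2, which binds foreign RNA, was higher at 6.23 and 5.98 in the parental and 10.8, 9.89 and 11.2 in the knockout libraries (log2 difference 0.71, SE 0.08, adjusted p = 0.00220), and SAMD9, given above, moved with it. The membrane restriction factors IFITM2 (225 and 239 against 177, 172 and 168; log2 difference -0.43, adjusted p = 0.00556) and IFITM3 (639 and 719.8 against 520.1, 529.5 and 514; log2 difference -0.38, adjusted p = 0.0116; adjusted p = 0.0563 without parental library 2) were lower, and they are near-identical in sequence. IRF1 was higher (log2 difference 0.45, adjusted p = 0.00986; adjusted p = 0.0641 without parental library 2). Members such as ISG15, MX1 and OAS1, outside the naming rule, were not called (log2 difference -0.10, adjusted p = 0.346, log2 difference 0.02, adjusted p = 0.983 and log2 difference 0.17, adjusted p = 0.720). For this list, leaving out the 5 libraries one after the other in the order used above, 3, 3, 3, 4 and 2 were called higher and 3, 3, 3, 3 and 1 lower.

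The Wnt list held members called in both directions. RNF43 and NOTUM remove or inactivate receptors and ligands, and AXIN2 is part of the complex that degrades beta-catenin. NOTUM measured 11 and 9.90 in the parental and 5.10, 4.72 and 5.56 in the knockout libraries (log2 difference -0.90, SE 0.16, adjusted p = 0.0117). RNF43 measured 32.3 and 35.97 against 18.8, 15.6 and 17.1 (log2 difference -0.95, SE 0.16, adjusted p = 0.00947; adjusted p = 0.0673 without parental library 2) and AXIN2 8.98 and 5.92 against 3.89, 4.15 and 3.96 (log2 difference -0.73, SE 0.17, adjusted p = 0.0302; adjusted p = 0.0774, 0.0741, 0.0848 and 0.112 without knockout library 1, knockout library 2, knockout library 3 and parental library 1 in turn). SOX9, a factor of intestinal crypts, was lower as well (57.9 and 51.9 against 42.9, 45.98 and 45.6; log2 difference -0.29, adjusted p = 0.0392; adjusted p = 0.104, 0.0820, 0.0931 and 0.140 without knockout library 1, knockout library 2, knockout library 3 and parental library 1 in turn). DKK1, a secreted Wnt inhibitor, was higher, at 73.5 and 85.7 in the parental and 124, 120.3 and 122 in the knockout libraries (log2 difference 0.61, SE 0.08, adjusted p = 0.00273). Together 4 of 18 tested members were lower and 1 higher, with a median of -0.16 (-0.09 on the values as deposited). The stem cell markers LGR5 and ASCL2 were too low to test. In the fits without knockout library 1, 2 or 3 or parental library 1 or 2, 1, 1, 1, 1 and 1 were called higher and 2, 2, 2, 2 and 3 lower. In the Notch list 2 of 17 were lower, the feedback inhibitor NRARP (22.8 and 25.5 against 15.7, 15.6 and 17.4; log2 difference -0.54, adjusted p = 0.00900; adjusted p = 0.0641 without parental library 2) and the ligand JAG1 (20.6 and 17.9 against 15.2, 13.96 and 14.4; log2 difference -0.38, adjusted p = 0.0321; adjusted p = 0.0570, 0.0985, 0.0924 and 0.120 without knockout library 1, knockout library 2, knockout library 3 and parental library 1 in turn).

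The ID genes, targets of BMP signalling whose products block basic helix-loop-helix factors, were lower together. ID1 measured 575 and 591 in the parental and 397, 392 and 396 in the knockout libraries (log2 difference -0.56, SE 0.04, adjusted p = 0.000356). ID2 measured 161 and 169.9 in the parental and 98.5, 103 and 91.2 in the knockout libraries (log2 difference -0.75, SE 0.08, adjusted p = 0.00116). ID3 measured 119.8 and 102 in the parental and 70.2, 69.9 and 67.8 in the knockout libraries (log2 difference -0.67, SE 0.09, adjusted p = 0.00280). Each was called in every fit that left out 1 library, and they were the only lower members among 25 tested genes of TGF-beta and BMP signalling, where 5 were higher. The higher ones included the latent TGF-beta binding protein LTBP2 (3.18 and 2.28 against 5.42, 6.31 and 6.28; log2 difference 0.92, adjusted p = 0.00876; adjusted p = 0.0595 without parental library 2) and the receptor TGFBR2 (16.5 and 12.96 against 20.9, 21.4 and 22.03; log2 difference 0.52, adjusted p = 0.0121; adjusted p = 0.0546 without parental library 2). With the same 5 omissions in the same order, 3, 3, 2, 4 and 1 were called higher and 3, 3, 3, 3 and 3 lower. HOX genes, which lay down position along the body axis, were mostly not called: 2 of 27 were higher and 1 lower. Next to HOXA3, its neighbour HOXA4 was higher (1.55 and 1.49 against 3.72, 3.10 and 3.50; log2 difference 0.81, adjusted p = 0.0144; adjusted p = 0.0536 and 0.0756 without knockout library 3 and parental library 2 in turn), and HOXD3 was lower (1.16 and 1.65 against 0.0961, 0.416 and 0.458; log2 difference -0.87, adjusted p = 0.0408; adjusted p = 0.101, 0.0823, 0.0771, 0.0557 and 0.213 without knockout library 1, knockout library 2, knockout library 3, parental library 1 and parental library 2 in turn).

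Genes of epithelial adhesion were higher more often than lower, 9 against 2 of 38. LAMB3 and LAMA3 encode laminin chains of the basement membrane under epithelia. LAMB3 measured 70.2 and 63.8 in the parental and 122, 129 and 129 in the knockout libraries (log2 difference 0.91, SE 0.06, adjusted p = 0.000170). LAMA3, outside the naming rule and added after its values were seen, measured 3.32 and 3.63 against 6.65, 6.62 and 7.48 (log2 difference 0.82, adjusted p = 0.00417). Both chains were higher, and each was called in every fit that left out 1 library. The keratin KRT80 (18.3 and 16.3 against 33.3, 33.5 and 34.04; log2 difference 0.92, adjusted p = 0.000199), the desmosomal plakophilin PKP2 (18.7 and 17.4 against 29.8, 31.1 and 33.02; log2 difference 0.76, adjusted p = 0.00106) and the epithelial ETS factor ELF3 (79.5 and 66.4 against 129.9, 130.2 and 129; log2 difference 0.83, adjusted p = 0.00113) were higher too. CLDN3, a tight junction claudin added on the same terms, was lower (28.4 and 31.9 against 19.8, 19.3 and 18.6; log2 difference -0.62, adjusted p = 0.00247). Dropping knockout library 1, 2 or 3 or parental library 1 or 2, 7, 7, 7, 7 and 6 were called higher and 1, 1, 1, 2 and 1 lower.

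The mesenchymal and matrix list moved both ways, with 5 of 31 higher and 8 lower and a median of -0.08. SPARC and MMP14, given above, were its extremes. ACTA2, smooth muscle actin, measured 23.9 and 25.5 in the parental and 10.8, 12.1 and 12.9 in the knockout libraries (log2 difference -0.995, SE 0.10, adjusted p = 0.000948), and S100A4, a calcium-binding protein of motile cells, 416 and 527 in the parental and 274, 248 and 249 in the knockout libraries (log2 difference -0.86, SE 0.09, adjusted p = 0.00130). PLAUR, the urokinase receptor, measured 99.6 and 107 against 75.9, 77.2 and 74.97 (log2 difference -0.43, adjusted p = 0.00171). TIMP1, TIMP2 and TIMP3, inhibitors of metalloproteinases and outside the naming rule, were lower (-0.54, -0.35 and -1.11), though TIMP3 was near 0 in knockout cells and lost its call in 1 fit (adjusted p = 0.0766 without parental library 2). The caveolar genes CAV1 and CAV2, added after their values were seen, were higher (log2 difference 0.45, adjusted p = 0.00413 and log2 difference 0.48, adjusted p = 0.0124). In the fits that left out a library, in the order above, 4, 4, 4, 5 and 4 were called higher and 8, 8, 8, 8 and 7 lower.

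Stress-related lists held members called in both directions. GDF15, a secreted cytokine induced by p53 and by the integrated stress response, measured 786 and 789 in the parental and 413, 432 and 414 in the knockout libraries (log2 difference -0.91, SE 0.05, adjusted p = 8.13e-05). TP53INP1, a p53 target of autophagy, measured 15.5 and 13.8 in the parental and 8.70, 8.75 and 8.77 in the knockout libraries (log2 difference -0.68, SE 0.08, adjusted p = 0.00202). PLK2, a p53-induced kinase, measured 89.7 and 64.5 in the parental and 160.3, 203 and 169.8 in the knockout libraries (log2 difference 1.21, SE 0.14, adjusted p = 0.00187), and SESN2, a sestrin of the stress response, 45.5 and 43.2 against 55.8, 58.4 and 56.4 (log2 difference 0.35, adjusted p = 0.00593). These 4 were called in every fit that left out 1 library, 2 in each direction. Over the p53 list 3 of 27 were higher and 4 lower. In the list of the integrated stress and unfolded protein response 2 of 26 were higher and 7 lower. Its median of -0.07 became 0.01 on the values as deposited, where 3 were higher and 3 lower. PDIA4, a disulfide isomerase of the endoplasmic reticulum, was lower at 332 and 341 in the parental and 262, 256 and 260.3 in the knockout libraries (log2 difference -0.37, adjusted p = 0.00276). The secreted endoplasmic reticulum proteins CRELD2 (log2 difference -0.29, adjusted p = 0.0162; adjusted p = 0.0620 and 0.0524 without knockout library 3 and parental library 1 in turn) and MANF (log2 difference -0.36, adjusted p = 0.0166; adjusted p = 0.0581 without knockout library 3) were lower as well. With knockout library 1, 2 or 3 or parental library 1 or 2 removed, 2, 2, 1, 4 and 1 were called higher and 4, 4, 1, 5 and 4 lower, and in the p53 list 2, 2, 2, 3 and 2 were called higher and 3, 2, 2, 2 and 3 lower. Both lower heat shock genes, HSPA1A (147 and 233 against 116, 127 and 120.4; log2 difference -0.61, adjusted p = 0.0408) and HSPA1B (208 and 274 against 175, 184 and 181; log2 difference -0.41, adjusted p = 0.0343), are near-identical copies with their highest value in parental library 2. None of the 18 heat shock genes was called without that library (adjusted p = 0.0802 and 0.0714). Both calls also ended without knockout library 1, 2 or 3 (adjusted p = 0.105, 0.0870 and 0.107 for HSPA1A, 0.0921, 0.0802 and 0.0928 for HSPA1B).

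Genes of cholesterol and fatty acid synthesis were more often higher than lower. The mevalonate pathway leads from acetyl-CoA through HMG-CoA to cholesterol, under control of SREBP2. Of 26 tested members of the list, fatty acid genes included, 9 were higher and 1 lower, with a median of 0.20. HMGCS1, which makes HMG-CoA, measured 163 and 165 in the parental and 254, 235 and 245 in the knockout libraries (log2 difference 0.57, SE 0.07, adjusted p = 0.00231). FDPS, further down the pathway, measured 270.2 and 279.6 in the parental and 369.5, 361 and 356 in the knockout libraries (log2 difference 0.40, SE 0.05, adjusted p = 0.00231). Both enzymes were called in every fit that left out 1 library. The single lower member was SQLE, squalene epoxidase, at 80.7 and 77.1 in the parental and 46.8, 42.9 and 43.5 in the knockout libraries (log2 difference -0.82, SE 0.07, adjusted p = 0.000769). Removing 1 library at a time in the usual order, 5, 5, 5, 10 and 5 were called higher and 1, 1, 1, 1 and 1 lower. Among NRF2 targets 5 of 21 were higher and 1 lower. HMOX1, heme oxygenase 1, measured 84.9 and 86.5 in the parental and 133, 131 and 129 in the knockout libraries (log2 difference 0.60, SE 0.05, adjusted p = 0.000282). The same omissions gave, for NRF2 targets, that 4, 3, 3, 4 and 2 were called higher and 0, 0, 0, 2 and 1 lower.

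In the lysosome and autophagy list 7 of 31 were higher and 3 lower, but without parental library 2 only 1 and 1 were. CTSA, cathepsin A, was the gain that held in every fit that left out 1 library, at 86.9 and 71.2 in the parental and 121, 117 and 121 in the knockout libraries (log2 difference 0.60, SE 0.08, adjusted p = 0.00322). CTSB, cathepsin B, was the loss that did, at 222 and 221 in the parental and 179, 170.1 and 175 in the knockout libraries (log2 difference -0.34, SE 0.05, adjusted p = 0.00372). Without knockout library 1, 2 or 3 the counts were 4, 3 and 2 higher and 3, 2 and 1 lower. Hypoxia and glycolysis genes were split, 2 higher and 3 lower of 28. The glycolytic enolase ENO2 was lower (43.7 and 45.6 against 29.3, 29.4 and 28.6; log2 difference -0.60, adjusted p = 0.000934), while the peptide ADM (46.9 and 46.1 against 68.3, 66.5 and 68.9; log2 difference 0.54, adjusted p = 0.00242) and the glucose transporter SLC2A1 (78.4 and 82.4 against 98.3, 105 and 104; log2 difference 0.35, adjusted p = 0.00736) were higher. Those 3 kept their calls whichever library was left out.

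Levels of cytosolic ribosomal proteins were highest in parental library 2. None of 72 was called, although their median was -0.26 and 2 of the 72 differences were above 0. The median was -0.08 without parental library 2 and -0.04 with quantile normalization. Without parental library 1, 50 were called lower. RPL5, with 1454 and 1730.2 in the parental and 1334, 1208 and 1258 in the knockout libraries, shows the pattern, with parental library 2 above the other 4 libraries and parental library 1 next. Of 48 nuclear genes of oxidative phosphorylation 4 were lower, against 1 without parental library 2 and 16 without parental library 1. NDUFA4, of the electron transport chain, held its call in every fit that left out 1 library (48.6 and 58.7 in the parental and 38.7, 35.7 and 36.4 in the knockout libraries; log2 difference -0.52, adjusted p = 0.00590). None of the 13 mitochondrially encoded genes was called. Of 20 housekeeping genes 1 was, the transferrin receptor TFRC (log2 difference 0.35, adjusted p = 0.00828). The part of library make-up in any single call was not tested. The plot of list members shows which lists kept their median without parental library 2.

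**Figure D4:**
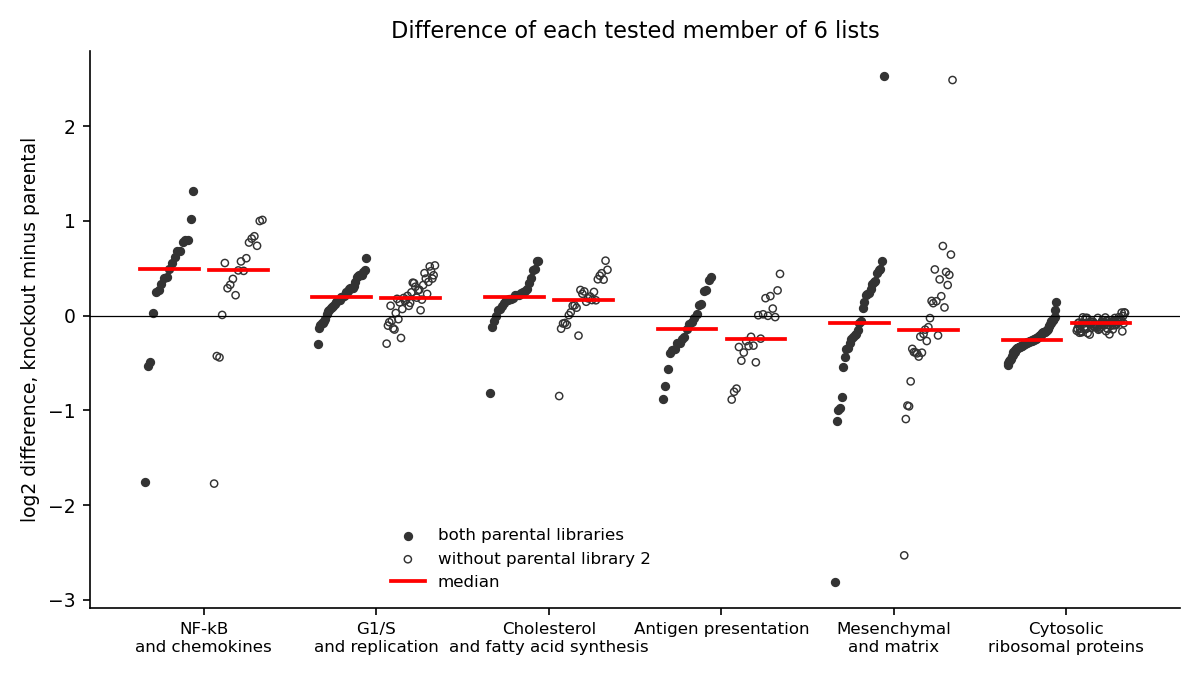
Log2 difference, knockout minus parental, of each tested member of 6 lists, with both parental libraries (filled points) and without parental library 2 (open points, same order of genes), and the median in red. The median of the NF-kB list was 0.49 and 0.48, and that of the cytosolic ribosomal proteins -0.26 and -0.08.

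Read against the share of all genes called, lists differed widely. Among lists with at least 15 tested members, 68.4% of the NF-kB genes were called in either direction, beside 8.94% over all genes. The share was 41.9% for mesenchymal and matrix, 38.5% for cholesterol and fatty acid and 34.6% for integrated stress and unfolded protein response genes. It was 32.3% for lysosome and autophagy, 32.0% for TGF-beta and BMP and 28.95% each for immediate early and epithelial adhesion genes. Antigen presentation genes and NRF2 targets were at 28.6%. Over all protein-coding genes tested, 5.94% were called higher and 5.07% lower. Closer to that background were the homologous recombination genes at 10.3%, the HOX genes at 11.1% and the housekeeping genes at 5.00%. The lists were chosen with results of these data known, so these shares describe the lists and test nothing.

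**Figure D5:**
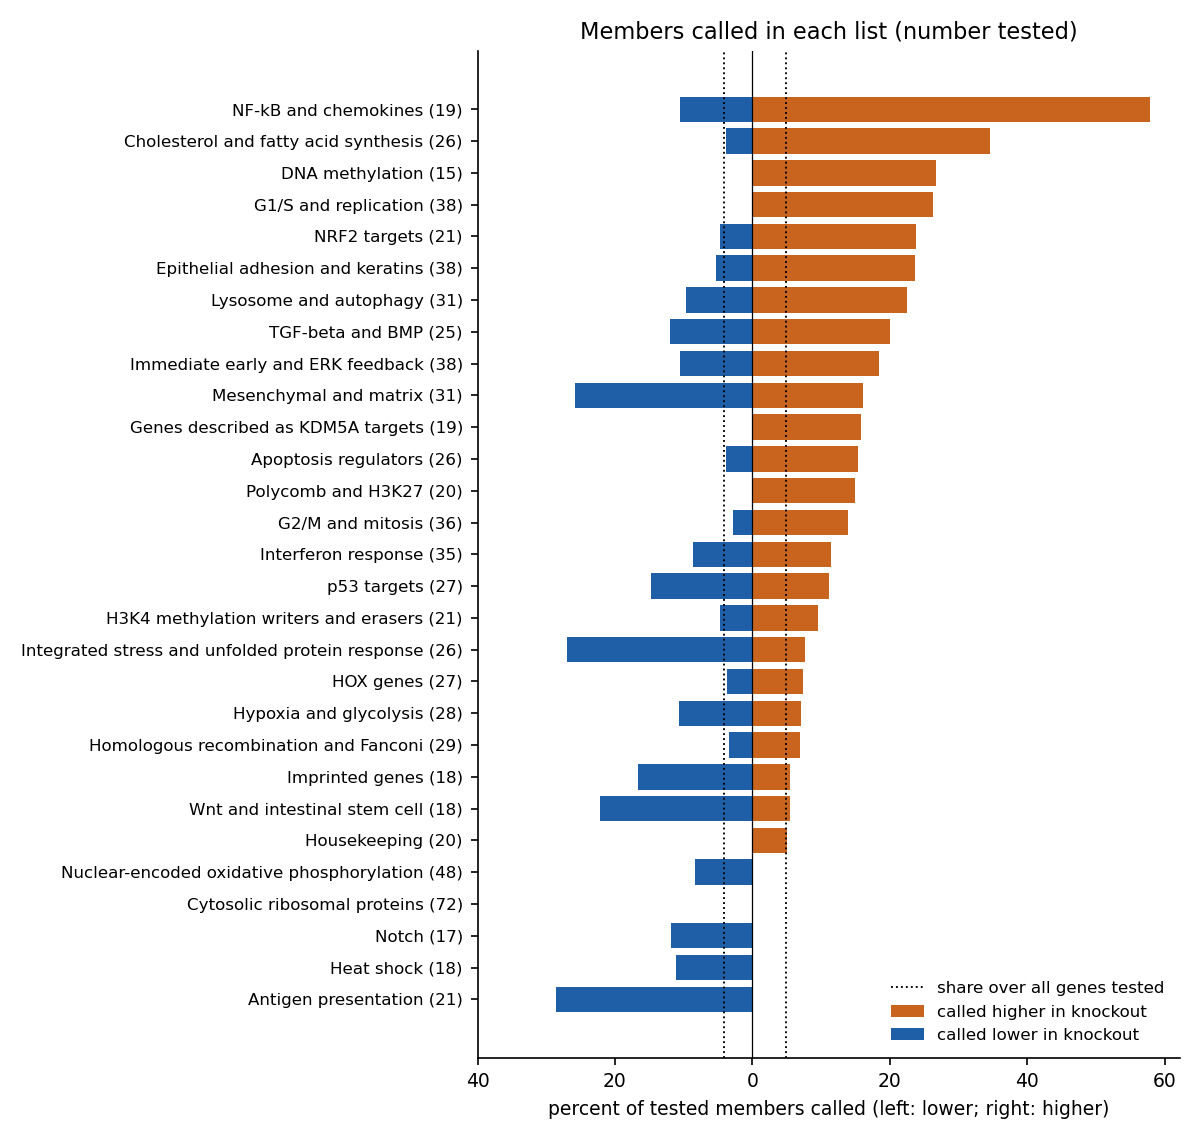
Percent of the tested members of each list that were called higher (orange, to the right) or lower (blue, to the left) in knockout cells, with the number tested in brackets. Lists with at least 15 tested members are drawn, apart from the neighbours of CA5B and of KDM5A. Dotted lines mark the shares over all genes tested, 4.84% higher and 4.09% lower; NF-kB genes reach furthest to the right and antigen presentation genes furthest to the left.

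Along the genome, calls in both directions were made on chromosomes 1 to 22 and X. Over all protein-coding genes tested, 5.94% were called higher and 5.07% lower. Of 288 windows of 10 Mb with at least 10 tested protein-coding genes, 6 had 20% or more of their genes called in 1 direction. The largest share was at the end of chromosome 12, in the window from 130000001 to 140000000, where 7 of 19 genes were higher. They included SFSWAP, a splicing regulator (42.2 and 40.3 against 57.9, 68.03 and 57.1; log2 difference 0.55, adjusted p = 0.00499), the Golgi protein gene GOLGA3 (27.6 and 25.7 against 39.3, 36.97 and 38.9; log2 difference 0.51, adjusted p = 0.00768; adjusted p = 0.0534 without parental library 2) and POLE, the leading-strand polymerase (37.9 and 43.2 against 54.6, 52.4 and 57.2; log2 difference 0.43, adjusted p = 0.0203; adjusted p = 0.0556, 0.0730 and 0.0775 without knockout library 1, knockout library 3 and parental library 1 in turn). Only 2 of the 19 were called without parental library 2. A window on chromosome X from 120000001 to 130000000 had 3 of 13 lower, among them the chromatin remodeller SMARCA1 (25.8 and 24.9 against 18.1, 16.4 and 18.2; log2 difference -0.51, adjusted p = 0.00773), and 1 of 13 without parental library 2. The lowest median, -0.45, was that of the first 10 Mb of the X chromosome. There, 11 genes at the very end, between 276322 and 2741309, each have 2 loci of the same name in the tables, which were summed. All 11 differences were below 0, with a median of -0.70, and 3 were called lower: SLC25A6, ASMTL and CD99. Parental library 2 was above all knockout libraries in 11 of them and parental library 1 in 7, and leaving out parental library 2 changed the median to -0.16, parental library 1 to -1.07. With knockout library 1, 2 or 3 or parental library 1 or 2 left out, 1, 1, 1, 9 and 3 were called lower, and CD99 alone was called in each of these fits. None of the 11 was called in the fit of only the 5 compared libraries. Both libraries with the mutant plasmid were above all 3 empty-vector libraries of the same line in 8 of the 11. These are among the 3 libraries of lower protein-coding share, and the part of library make-up in these calls was not tested. Those genes were chosen after their values were seen.

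Genes that were read in 1 group only were few. By the rule of at least 5 in every library of 1 group and under 0.5 in every library of the other, 5 genes were parental only: LIPG, FAM221A, CA5BP1, GNG5P2 and RP11-369J21.12. In the knockout cells with the mutant plasmid RP11-369J21.12 was at 5.04 and 0.240. Of the 5 fits that left out 1 library, only the fit without knockout library 2 called RP11-369J21.12 (adjusted p = 0.0492). Without knockout library 1 or 3 its adjusted p was 0.0570 and 0.0642. GNG5P2 (chromosome X, 110346703 to 110346909), a processed pseudogene of a G protein subunit, was at 22.8 and 70.9 in parental cells and listed at 0 in all 3 knockout libraries. The 4 genes read in empty-vector knockout cells only were short pseudogene or unclassified loci, and 1 of them passed the test, RP11-508N12.4. It was listed at 0 in both parental libraries and was at 11.8, 10.97 and 21.3 in the empty-vector knockout libraries. In the same knockout line it was at 15.1, 8.66 and 3.15 with the wild-type plasmid and listed at 0 in both libraries with the mutant plasmid. Among genes of other types with a regular symbol, KHSRPP1 (11.1 and 9.44 against 0.588, 1.09 and 1.002; log2 difference -2.58, adjusted p = 0.000304) and LINC01405 (70.1 and 69.3 against 13.7, 16.2 and 11.1; log2 difference -2.28, adjusted p = 0.000866) were lower. ANO1-AS1 (3.74 and 0.164 against 15.4, 16.9 and 16.3; log2 difference 2.87, adjusted p = 0.0139; adjusted p = 0.0552 without parental library 2), DUXAP10 (1.98 and 4.13 against 14.5, 16.1 and 16.2; log2 difference 2.08, adjusted p = 0.000934), LINC01296 (5.02 and 13.9 against 28.9, 26.8 and 23.6; log2 difference 1.53, adjusted p = 0.0194; adjusted p = 0.0590, 0.0590 and 0.0505 without knockout library 1, knockout library 2 and knockout library 3 in turn) and TCEB1P19 (3.25 and 3.49 against 12.02, 10.7 and 8.76; log2 difference 1.38, adjusted p = 0.00724) were higher. Reads of pseudogenes may come from their parent genes, and DUXAP10 and LINC01296 of chromosome 14 have related copies. The strand setting of the counting is not given in the sources used here, so reads of an antisense gene and its partner cannot be told apart.

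Promoters of the called genes differed in GC content. Over the 9890 tested protein-coding genes with a RefSeq window the median GC share was 65.3%, against 64.3% in the 605 higher and 68.7% in the 505 lower genes. CCGCCC occurred on either strand in 70.4% of all windows, in 64.8% of the higher and in 76.6% of the lower genes. TGANTCA, the letters described for AP-1, occurred in 4.60%, 5.79% and 3.96%. These shares describe letters within 300 bases and no test was made of them.

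The same genes can be set beside the knockout cells that received KDM5A for 24 hours. Those comparisons share the 3 empty-vector knockout libraries with this one, so the values are given side by side and no agreement between them is read. LIPG stayed at 0.211, 0.0364 and 0.0992 with the wild-type and 0.00742 and 0.0136 with the mutant plasmid, and SPARC at 5.69, 6.92 and 7.40 and 7.66 and 6.49. Neither gene was called against the empty vector in the knockout cells (LIPG adjusted p = 0.784 and 0.388, SPARC adjusted p = 0.619 and 0.799). ARL14, a small GTPase, was at 5.44 and 4.89 in the parental and 14.8, 11.9 and 13.8 in the knockout libraries (log2 difference 1.23, adjusted p = 0.00116), and at 8.36, 6.90 and 8.61 with the wild-type and 8.64 and 8.72 with the mutant plasmid. Against the empty vector those differences were -0.70 and -0.58 (adjusted p = 0.0137 and 0.0173). HOXA3 was at 19.3, 19.4 and 18.8 with the wild-type plasmid (-0.34, adjusted p = 0.0637) and 16.3 and 17.3 with the mutant plasmid (-0.53, adjusted p = 0.0108). CXCL2 moved further up, to 16.9, 14.9 and 14.7 and 14.3 and 11.8 (1.39 and 1.16, adjusted p = 0.00541 and 0.00809).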

How the data were processed

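RNA sequencing of 10 libraries was analysed, 5 of them in the comparison. For each library the authors deposited log2 FPKM values, listed by gene symbol and genomic locus. The deposited values show log2 of a value plus 1, and the linear values sum to 999975 to 1000008, so the totals had been set equal. The build GRCh38 and the tools Cufflinks 2.2.1, GATK 4.1.2, STAR 2.7.1a and Picard are named in the submitters' processing notes, without order, annotation release or strand setting (not given in the sources used here). Read counts were not analysed, so depth and counting precision are unknown.

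Linear values were summed per symbol and divided by the library's median ratio to the geometric mean over 13651 genes. Genes at 1 or more in at least 2 libraries were tested with limma 3.58.1 in R 4.3.3 (lmFit, contrasts.fit and trended eBayes) on the log2 of scaled values plus 1, 10 libraries in 4 groups, two-sided, Benjamini-Hochberg adjusted, checked on simulated data. Gene types came from GENCODE 29 (94.0% of loci matched) and promoters from RefSeq (GRCh38.p14), the first listed window per gene. Replicate numbers did not pair the libraries (r = 0.041 for number 1 and -0.009 for number 2).

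Members and lists were chosen with earlier results of these data known. Named were KDM5A and its paralogs, the 15 largest protein-coding differences each way (called, groups not overlapping, mean of at least 5), 4 each way of other types, in each list the 5 members or fewer with the lowest p, up to 6 genes in each of 4 windows and the genes read in 1 group only. Not all are printed, and some genes are not reported here. Of 46 lists, those for intestinal differentiation, germline, protocadherin, metallothionein, imprinted and apoptosis genes, RB and CDK inhibitors, and the neighbours of CA5B and of KDM5A had 0, 1, 0, 0, 1, 4, 1, 0 and 1 members called higher and 0, 1, 1, 0, 3, 1, 1, 2 and 1 lower, of 7, 7, 5, 7, 18, 26, 10, 16 and 24 tested. Alternatives changed the scaling, the pseudocount (0.1, 0.5), the filter, the libraries and weights in the fit, the replicate block, the genes tested and the threshold. Leaving out the 3 libraries of lower protein-coding share, and that share as a covariate, were chosen after seeing the data.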

Additional observations from a re-analysis of the deposited data

How the results depend on the processing

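With 1 library left out, the fit called 685 to 1901 genes, 367 to 941 higher and 308 to 960 lower. Fits of only the 5 compared libraries called 464 genes (240 higher, 224 lower), or 490 (257 and 233) with scaling factors from those 5. Array weights gave 1042 calls (464 lower). The replicate block gave 556 (301 and 255), although the numbers did not pair the libraries. Without filter 483 were lower, and on the values as deposited 374. A difference of at least 1 on the log2 scale left 145 (63 and 82). Of the alternatives chosen after seeing the data, leaving out the 3 libraries of lower protein-coding share gave 1047 (473 lower), and that share as a covariate 620 (328 and 292). Quantile normalization, pseudocounts of 0.1 and 0.5, a filter at a mean of 5, a filter on the 5 libraries and protein-coding genes alone each gave counts within 1.5 times of 1589. KDM5A was called in none of the alternatives.

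Of 171 called genes that the naming rule picked, 94 were called in every fit with 1 library left out, 121 without those 3 libraries and 90 in the fit of only 5 libraries. None of the 171 reversed, which was fixed in advance for these fits because the groups did not overlap. Read depth is unknown, so the precision of low values cannot be given.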
